A study of Rattus norvegicus with 2 samples.

Results

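The ribosomal protein genes encode the proteins of the large and the small subunit of the cytoplasmic ribosome. Members were all probe sets of the array that carry a single gene symbol starting with Rpl or Rps followed by a digit, or with Rplp, leaving out the S6 kinase genes. The rule uses names only, and it found 62 of 8799 probe sets, which stand for 43 genes, 30 of the large and 13 of the small subunit. RNA came from the first and second branching orders of rat mesenteric artery, the resistance vessels that feed the gut. One group was sham operated and the other had prehepatic portal hypertension, made by tying the portal vein partly shut. Each group was 1 pool of total RNA from 20 rats, read on 1 Affymetrix RG_U34A array. The labels name no strain, sex, age or time after the operation. With 1 array per pool there is no replicate error, no test and no p-value. Every difference is between these 2 pools, and precision is limited by the number of arrays.

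Each subunit is an assembly of ribosomal RNA and many proteins. The small subunit reads the mRNA and the large subunit joins the amino acids, and the new chain leaves through a tunnel in the large subunit. Cells make the proteins in nearly equal numbers, and their mRNAs are among the most abundant in most tissues. Most of these mRNAs begin with a terminal oligopyrimidine tract, a run of C and T that starts with a C at the cap. Through this tract growth signals acting on the kinase mTOR set how much of the mRNA is translated, so mRNA level and protein output can part. The array measures the mRNA only.

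To show what the members share that their names do not fix, the bases around the annotated transcript start were taken from the RefSeq promoter table of the assembly GRCr8, in which 37 of the 43 genes were found. The windows of 30 bases below run from 10 bases before the start to 20 bases from it, on the strand of the gene, and capitals mark a tract found by the search. The first 5 belong to genes near the upper end of the range of ratios described below and the last 4 to genes at its lower end.
Rpl24 (chr11:58128386-58128415, minus strand): tagggaggagattctctaccctataaggtg
Rpl23 (chr10:83272165-83272194, minus strand): cttcctttctgaCTCTTTCCggacgctcaa
Rpl19 (chr10:83519054-83519083, plus strand): ccagcaagCTCTTTCCTTTCgctgctgcgt
Rps3a (chr2:173827023-173827052, minus strand): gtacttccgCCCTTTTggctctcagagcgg
Rps10 (chr20:5700725-5700754, minus strand): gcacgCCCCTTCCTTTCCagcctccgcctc
Rpl17 (chr18:70856266-70856295, plus strand): ttcgcgCTTCCTCTTCCTgttagcggccag
Rpl4 (chr8:73566467-73566496, plus strand): tcttcCTTTTCCTgtgggagcagccgggta
Rps24 (chr16:96507-96536, plus strand): ggtcctCTTTTCCTCCTTTacagctcgggc
Rpl36al1 (chr6:93392239-93392268, minus strand): cttccgctccatccgtccctttcctgttcg
A tract of at least 5 bases that starts with C within 5 bases of the annotated start was present in 18 of the 37 genes (48.6%), against 17% of all 33469 promoters of the table. The letters CTTTCC stood on the gene strand within 25 bases of the start in 11 of the 37 (29.7%), against 2.19% of all promoters, and on the other strand in 1 (2.7%), against 2.23%. The letters CTTTTC stood on the gene strand in 5 (13.5%), against 1.87%, and on the other strand in 1 (2.7%), against 1.86%. In 9 genes the tract was found together with at least 1 of both words on the gene strand, so these searches overlap. Annotated starts can lie some bases from the true cap site. Both ends of the range held genes with a tract, such as Rpl23 and Rpl19 at the upper and Rpl4, Rpl17 and Rps24 at the lower end. The 18 genes with a tract had a median log2 ratio of 0.12, with 14 above 0, and the 18 genes without one that had a value had a median of 0.17, with 16 above 0.

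Most ribosomal protein genes were slightly higher in the portal hypertensive pool, and few were far from equality. Signals below a floor of 330.9 intensity units, the 40th percentile of both arrays, were set to it, and a ratio here is the log2 of portal hypertensive over sham signal, as the median over the probe sets of a gene with at least 1 array above the floor. Of the 62 probe sets, 59 were above the floor in both pools, 1 in 1 pool only and 2 in neither, which left 42 genes with a value. Of these, 33 had a ratio above 0 (78.6%), and 46.8% of all 3351 genes with a value did so. This count was 26 after quantile normalization and 25 after removal of a loess trend of ratio on level, with 51.5% and 50.3% of all genes above 0. The median ratio was 0.15, a 1.11-fold difference, beside -0.02 over all genes, and it was 0.042 and 0.083 after these scalings. The SD over the members was 0.20, against 0.34 over all genes, most of which gave much lower signals. Only 3 of the 42 genes, Rpl24, Rpl23 and Rpl14, were at least 1.2-fold higher, against 15.5% of all genes. Rps2-ps1 and Rpl19l4 were at least 1.2-fold lower, against 20.4%. Rps2-ps1 alone was at least 1.5-fold apart in either direction, against 8.18%.

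**Figure D1:**
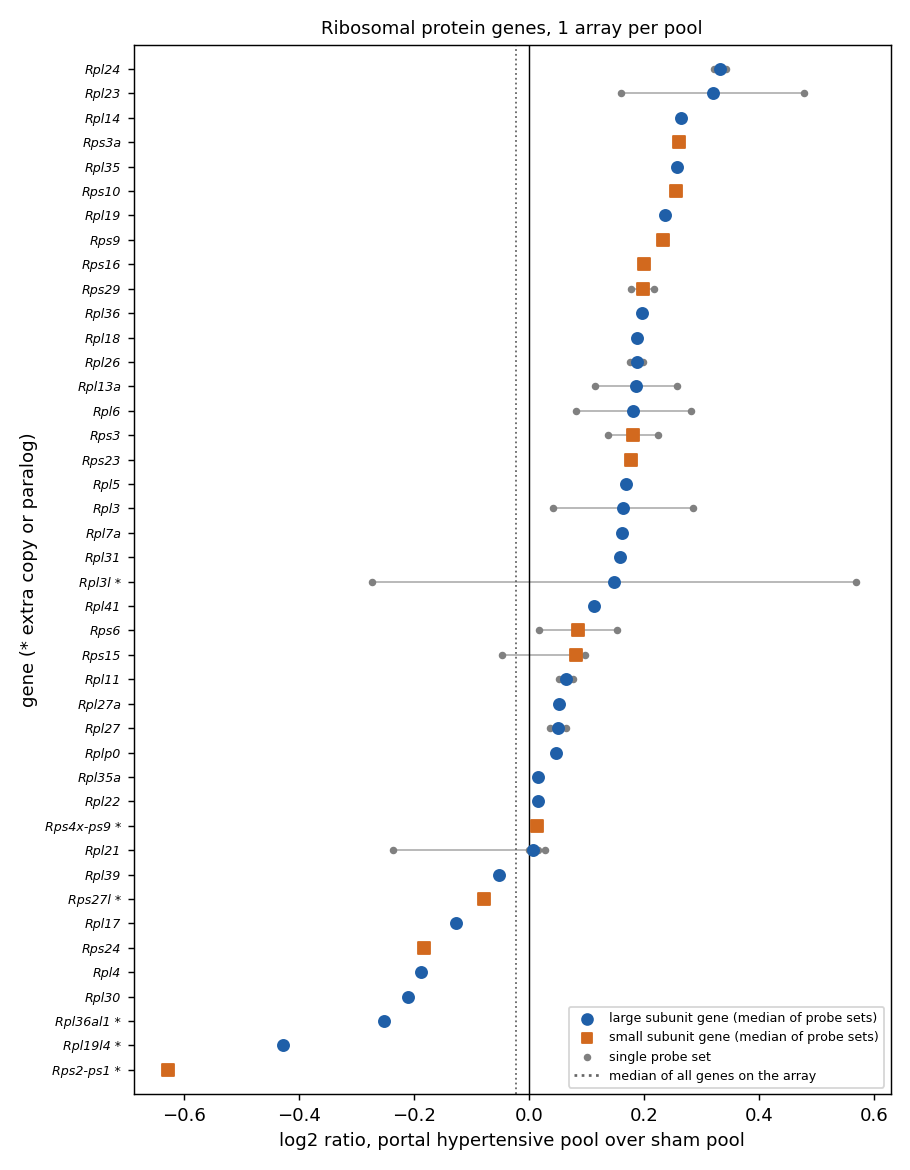
Log2 ratio of portal hypertensive over sham signal (horizontal axis) for the 42 ribosomal protein genes with a value, sorted by ratio. Large symbols are the gene's median (circle, large subunit; square, small subunit), grey points and bars its single probe sets, and the dotted line the median of all genes on the array, -0.02. Of the genes, 33 lie right of 0 as deposited (26 after quantile normalization, 25 after the loess). The 3 highest genes belong to the large subunit and the lowest to the small subunit, and between them the subunits are mixed.

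The large and the small subunit had overlapping ranges and nearly equal medians. The 29 large subunit genes with a value had a median ratio of 0.15 and ranged from -0.43 to 0.33, with 23 above 0. The 13 small subunit genes had a median of 0.18 and ranged from -0.63 to 0.26, with 10 above 0. The difference of the medians, large minus small, was -0.03 as deposited, and it turned to 0.042 after quantile normalization. Without the 6 extra copies and paralogs, the medians were 0.16 over 26 large and 0.19 over 10 small subunit genes. Within the 14 ribosomal protein genes that had several measured probe sets (31 in all), the scatter about each gene's own mean had an SD of 0.10. Over all genes of the array with several measured probe sets it was 0.30. Probe sets of a gene share the same arrays, so this SD is not the error of a ratio between the pools. Measured large subunit probe sets gave signals from 1322 to 94999 in the sham pool and from 1124 to 105772 in the portal hypertensive pool. Those of the small subunit ran from 4482 to 103544 and from 2901 to 120401. Signals of different probe sets do not rank the abundance of their mRNAs.

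The proteins at the upper end of the large subunit sit at different places on it. Rpl24, which forms a bridge to the small subunit, had signals of 57073 and 77384 in the sham pool on its probe sets and 71365 and 98183 in the portal hypertensive pool. Both of its probe sets were higher by nearly the same amount, with ratios of 0.32 and 0.34. Rpl23, which lies at the face between the subunits, gave 40707 and 64134 for sham and 45496 and 89340 for portal hypertension. Its ratios of 0.16 and 0.48 had the same sign but differed in size by more than those of Rpl24. Rpl14, another large subunit protein, had 19719 and 23682 on its only probe set, a ratio of 0.26. The smallest of the proteins, Rpl41, had 16404 and 17735, a ratio of 0.11.

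Genes for proteins that line the exit tunnel or ring its mouth went both ways. Of 8 such single-symbol genes, 5 had ratios above 0 (62.5%), against 46.8% of all genes, and the median of the 8 was 0.09. Rpl35, which lies at the mouth where chaperones and the targeting particle dock, had 43528 and 66081 for sham and 51955 and 79123 for portal hypertension. Its probe sets gave ratios of 0.26 and 0.26. Rpl19, also beside the mouth, had 89802 and 105772, a ratio of 0.24. Rpl26 and Rpl31, further proteins of the rim, had ratios of 0.19 and 0.16. Rpl22, a rim protein that can be spared in many cells, had 94999 and 96008, a ratio of 0.02 that turned to -0.14 after quantile normalization and to -0.09 after the loess. Rpl39 and Rpl4, which line the tunnel itself, had ratios of -0.05 and -0.19, the latter from signals of 52368 and 45964. Rpl17, another tunnel protein, had 3185 and 2917 on its single-symbol probe set, a ratio of -0.13. Its brighter probe sets, which also list copies, had ratios of 0.17 and 0.14.

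Rpl5 and Rpl11, which carry the 5S ribosomal RNA into the large subunit and bind the p53 regulator Mdm2 when assembly fails, had ratios of 0.17 and 0.06. Rpl5 had 1322 for sham and 1485 for portal hypertension. Rpl11 had 52338 and 75571 for sham and 55202 and 78369 for portal hypertension, and its ratio turned to -0.044 after quantile normalization and to -0.017 after the loess. Rplp0, the base of the stalk that recruits elongation factors, had 67448 and 69685, a ratio of 0.05 that turned to -0.079 and -0.038 under these scalings. Rplp1l3, a copy of the stalk protein gene Rplp1, was below the floor in both pools, with 52.3 and 32. Rpl3, which reaches towards the site of peptide bond formation, had 54809 and 85133 for sham and 56401 and 103795 for portal hypertension. Its ratios of 0.04 and 0.29 had the same sign. The remaining large subunit genes with standard names ran from Rpl36 at 0.20 to Rpl30 at -0.21, the latter from signals of 1874 and 1619. Rpl21, the only gene with 4 probe sets, had 37958, 50997, 2315 and 1975 for sham and 38347, 43275, 2360 and 1974 for portal hypertension. Its ratios were 0.01, -0.24, 0.03 and 0.00 in this order, and its direction was not settled.

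In the small subunit, all 5 single-symbol genes for proteins of the head had ratios above 0, against 46.8% of all genes. Their median was 0.20, although the ratios of Rps15 and Rps29 turned to -0.013 and -0.00053 after quantile normalization. Probe sets that list several symbols were left out of the groups by place on the ribosome. Of 15 such probe sets for the small subunit, 13 were above 0, and those of Rps19 and Rps25 were both at -0.11. Rps10, which is ubiquitylated when ribosomes collide, had 41020 for sham and 48951 for portal hypertension, a ratio of 0.26. Rps16, whose tail reaches towards the initiator tRNA, had 89397 and 102722, a ratio of 0.20. Rps29, a zinc-binding protein, had 87542 and 103544 for sham and 99043 and 120401 for portal hypertension, with ratios of 0.18 and 0.22. Both pools were at the bright end of the array for Rps29, and 120401 was the highest signal of any member. Rps3, at the channel through which mRNA enters, had ratios of 0.14 and 0.22. Rps15 had 64345, 16024 and 11750 for sham and 68825, 16956 and 11377 for portal hypertension. Its brighter probe sets were higher and its dimmest was lower, with ratios of 0.10, 0.08 and -0.05.

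Of 5 single-symbol genes for proteins of the small subunit body, 4 had ratios above 0. Rps3a, a protein of the platform, had 81007 for sham and 97097 for portal hypertension, a ratio of 0.26, the highest of the small subunit. Rps9, which takes part in the accuracy of decoding, had 74507 and 87615, a ratio of 0.23, and Rps23, at the decoding centre, had 0.18. Rps6, the substrate of the S6 kinases, had 33286 and 55579 for sham and 33667 and 61790 for portal hypertension. Its ratios were 0.02 and 0.15. Rps24 was the exception, with 9927 and 8744 and a ratio of -0.18.

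Genes annotated as extra copies or paralogs stood lower than the standard genes. Of the 6 with a value, 2 had ratios above 0 and the median was -0.17, against 31 of 36 and a median of 0.17 for the standard genes. Rps2-ps1, named as a pseudogene of Rps2, had 4482 for sham and 2901 for portal hypertension on 1 probe set, a ratio of -0.63. Its other probe set was below the floor in both pools. Rpl19l4, a copy of Rpl19, had 3607 and 2681, a ratio of -0.43, and Rpl36al1, a copy of Rpl36a, had 39420 and 33098, a ratio of -0.25. Rps27l, a paralog of Rps27 induced by p53, had 24481 and 23177, a ratio of -0.08, and Rps4x-ps9 had 39310 and 39704, a ratio of 0.01 that turned to -0.043 after the loess. Rpl3l, the paralog of Rpl3 that is typical of striated muscle, had 1359 and 1124 on its measured probe set. Its other probe set was above the floor in the portal hypertensive pool only, with 207.3 and 490.9, so its direction was not settled. Probe sets of near-identical copies can bind each other's transcripts, so these names are those of the platform annotation and the source of the signal is uncertain. Rps2-ps1, Rpl19l4 and Rpl3l were also dim for ribosomal protein probe sets.

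Brighter member probe sets had higher ratios, and so had other bright probe sets. Of the 59 measured probe sets, 46 were above 0, against 46.9% of all measured probe sets. Over these 59, Pearson's r of ratio on mean log2 level was 0.58, given as a description, since the probe sets share the 2 arrays and some share a gene. The 9 probe sets with a mean signal below 10000 had a median ratio of -0.18, with 2 above 0. Between 10000 and 40000 the median was 0.04 over 15 probe sets, and between 40000 and 70000 it was 0.14 over 19. At 70000 and above, all 16 probe sets were above 0, with a median of 0.22. Probe sets of no ribosomal protein gene had medians of -0.04, 0.01, 0.04 and 0.14 in these 4 classes of signal, over 4229, 506, 87 and 41 probe sets. The SD of the member and the other probe sets was 0.14 and 0.17 between 40000 and 70000, and 0.11 and 0.10 at 70000 and above, so other bright probe sets were spread about as narrowly. In the brightest class 85.4% of those 41 were above 0. Their median was -0.01 after quantile normalization, 0.04 after the loess and 0.16 after median centring. At that signal the large and small subunit probe sets had the same median of 0.22, over 10 and 6 probe sets. The ribosomal protein probe sets were much brighter than most, with a median signal of 44805 for sham and 47458 for portal hypertension, against 560.6 and 529 over all probe sets. The part of signal level in the higher ratios of the members was not tested beyond these classes and the 3 other scalings.

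**Figure D2:**
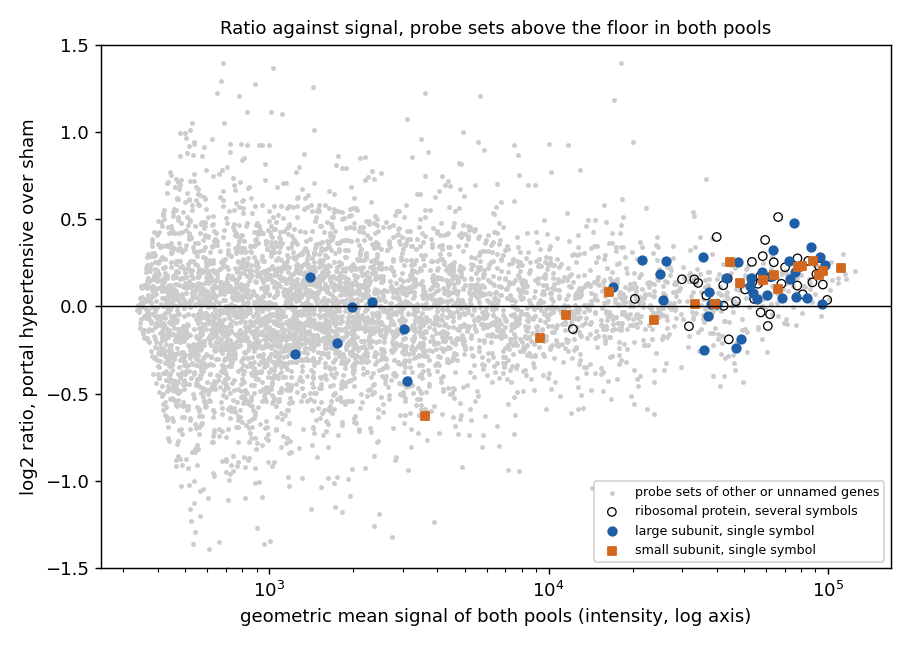
Log2 ratio of portal hypertensive over sham signal (vertical axis) against the geometric mean signal of both pools in intensity units (log axis), for probe sets above the floor in both pools. Filled symbols are ribosomal protein probe sets with a single symbol, open circles those with several symbols, and grey points all others. The member probe sets below 10000 lie mostly under 0 and the 16 at 70000 and above all lie over 0, as do 85.4% of the other probe sets at that signal.

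Dim and bright probe sets that list the same gene mostly showed the same order. Here 40 further probe sets were taken in that list several symbols, at least 1 of them a ribosomal protein gene, and copies with a symbol of their own were left out. For 24 genes with at least 2 measured probe sets, the brightest had the higher ratio in 18, and the median difference over the 24 was 0.07. The share over all genes of the array was not computed, so this count cannot be called particular to the members. Some pairs hardly differed in signal, such as Rpl6 at 1.05-fold and Rpl9 at 1.10-fold. Rpl12 was not paired because its probe sets list different symbols, and it went the other way. It had 0.0035 on its dimmer and -0.19 on its brighter probe set. In 7 genes the signals of dimmest and brightest probe set were at least 5-fold apart, and the brightest was higher in 6. Among them Rps24 had 9927 and 8744 on its dim probe set and 91885 and 100232 on its bright one, with ratios of -0.18 and 0.13. Rpl17 had ratios of -0.13 and 0.17, Rpl30 -0.21 and -0.03, Rpl27a -0.13 and 0.05, Rps15 -0.05 and 0.10, and Rpl5 0.17 and 0.22 on the dimmest and the brightest. Rpl21 went the other way, with 0.00 and -0.24. Both of these Rpl21 probe sets carry a single symbol, as do both of Rps15. In Rpl17, Rpl30, Rpl5, Rps24 and Rpl27a the pair set a single-symbol probe set beside one that also lists copies. Those pairs may not read the same transcripts. The low ratios of Rps24 and Rpl17 among the members were those of dim probe sets. Their bright probe sets, which also list copies, were above 0, and the reason for the difference was not tested.

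**Figure D3:**
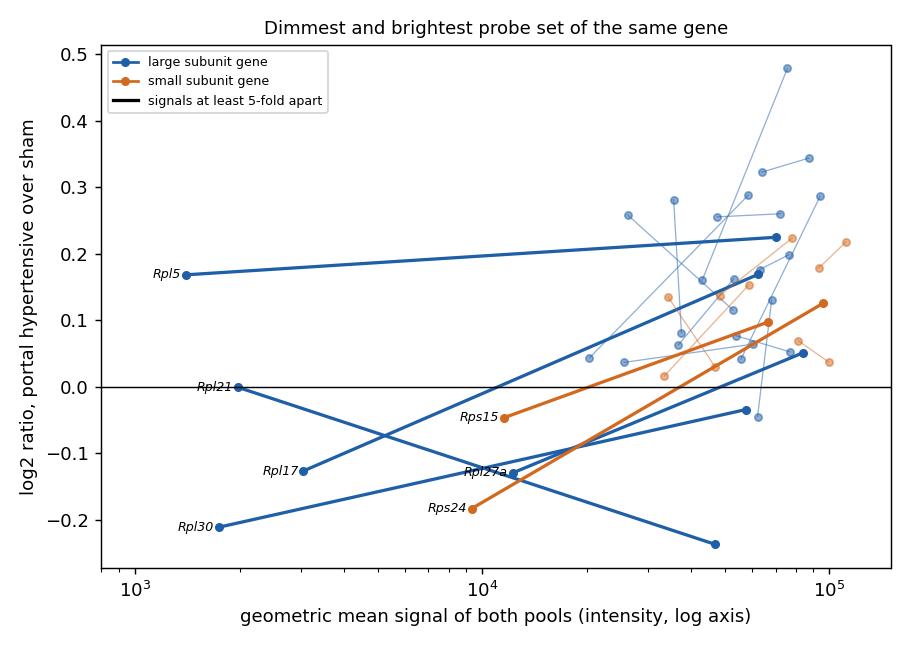
Log2 ratio of portal hypertensive over sham signal (vertical axis) against geometric mean signal (log axis) for the dimmest and the brightest measured probe set of 24 ribosomal protein genes, joined by a line for each gene. Thick labelled lines are the 7 genes whose signals were at least 5-fold apart. In 6 of them the bright probe set had the higher ratio, and in Rpl21 the lower. Of these, only Rps15 and Rpl21 have a single symbol on both probe sets.

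The probe sets with several symbols cover ribosomal proteins that the single-symbol rule misses, and they gave similar values. Of 38 with a value, 32 were above 0, with medians of 0.14 over 23 for the large and 0.13 over 15 for the small subunit. Rpl10, which is among the last large subunit proteins to join before the subunit is released for translation, had 55559 for sham and 79240 for portal hypertension, a ratio of 0.51. Rpl13 had 34835 and 45902, a ratio of 0.40, and Rplp2 of the stalk had 52256 and 68049, a ratio of 0.38. These 3 were chosen after their values were seen. Rps19, the gene first linked to Diamond-Blackfan anaemia, had 63373 and 58643, a ratio of -0.11. With these probe sets added, 56 of 68 genes were above 0 and the difference of medians, large minus small, turned to 0.0097. Rpl12 was counted once for each of its probe sets, at -0.19 and 0.0035, because their listed symbols differ. The count and the difference thus hold it more than once.

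Other groups of translation genes had medians from 0.03 to 0.16, with the array as a whole at -0.02. Quantile normalization lowered the members' median to 0.042. It raised that of ribosome biogenesis from 0.16 to 0.22 and that of mitochondrial ribosomal proteins from 0.10 to 0.15. Of 19 genes for initiation factors and their regulators with a value, 11 had ratios above 0, with a median of 0.04. The regulators among them are Eif2ak2, Eif2ak3 and Eif4ebp1, and the last is also counted with growth signalling below. Eif4e, the protein that binds the mRNA cap, stood apart with 6730 for sham and 3557 for portal hypertension on its only probe set, a ratio of -0.92. Its relative Eif4e2 had 3760 and 5012, a ratio of 0.41, and Eif2b4, a subunit of the exchange factor for initiation factor Eif2, had 2721 and 3468, a ratio of 0.35. Of 4 genes for elongation factors and the kinase Eef2k, 3 were above 0. Eef1a1, which brings aminoacyl-tRNA to the ribosome, was at 0.21 and Eef1g at 0.14. The kinase gene Eef2k was at -0.17 from probe sets that went opposite ways.

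The list of other mRNAs known for a terminal oligopyrimidine tract had 8 of 9 genes above 0 and a median of 0.14, beside 0.15 for the ribosomal protein genes. After quantile normalization the medians were 0.15 and 0.042, and after the loess 0.14 and 0.083. They were closer under the other settings that gave both. Examples are 0.16 and 0.17 after median centring, and 0.14 and 0.11 with the brightest probe set. It ran from Nap1l1, a histone chaperone gene, at -0.04 to Rack1, a scaffold protein of the small subunit head named outside the Rps symbols, at 0.21. Rack1 had 47163 for sham and 54697 for portal hypertension. Gas5, a noncoding host of small nucleolar RNAs, had 0.20. The list shares Eef1a1, Eef1g and Eef2 with the elongation factors.

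Among 12 genes of the ribosome biogenesis list with a value, 8 were above 0 and the median was 0.16. Not all of these are assembly factors. The list holds the kinase gene Rps6kb1, counted again below, and Nol3, at 0.24. Nolc1, a nucleolar phosphoprotein gene, had a ratio of 0.47 as the median of 0.18 on its measured probe set and at least 0.77 on one above the floor in 1 pool only. Nvl, an ATPase of large subunit assembly, had 401.4 and 495.4, a ratio of 0.30. Of 13 genes for proteins of the mitochondrial ribosome, 9 were above 0, with a median of 0.10, from Mrps6 at -0.40 to Mrpl40 at 0.34 and Mrpl58 at 0.36. Of 13 genes of S6 kinases and growth signalling, 7 were above 0, with a median of 0.03 whose sign turned with the floor. Rps6kb1, the S6 kinase that phosphorylates Rps6, was lower on both probe sets, with 2430 for sham and 1983 for portal hypertension as medians and a ratio of -0.29. Mlst8, a subunit of the mTOR complexes, had 720.9 and 433.8, a ratio of -0.73 that was -0.41 under a floor at percentile 20, where its other probe set also counted. Tsc2, a brake on mTOR, had 603.5 and 389.6, a ratio of -0.63, and Pik3c3, a lipid kinase gene, had 652.3 and 800.6, a ratio of 0.30.

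**Figure D4:**
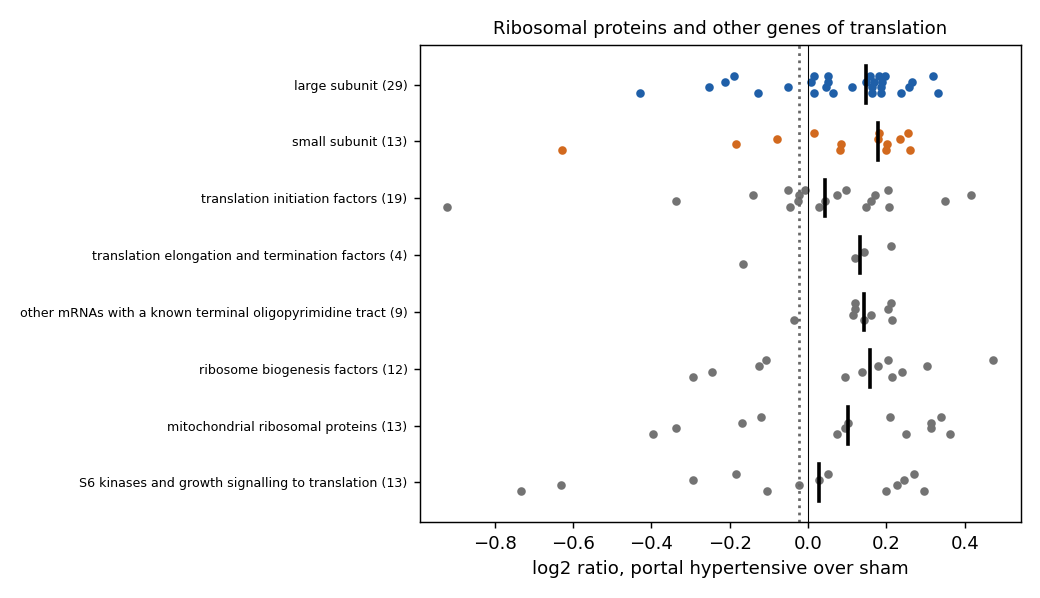
Log2 ratio of portal hypertensive over sham signal (horizontal axis) for each gene with a value in 8 groups, with the number of genes in brackets. Black bars are medians, 0.15 and 0.18 for the large and small subunit (0.049 and 0.0067 after quantile normalization), and the dotted line is the median of all genes, -0.02. The vertical offset of points within a group has no meaning.

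Marker genes of cell types and control probe sets also differed between the pools. All 8 smooth muscle marker genes on the array were above the floor, with a median ratio of -0.09. Of 9 adipocyte markers, 1 (Plin1) was below the floor in both pools, 6 of the other 8 had ratios above 0, and the summed signal of the brightest probe set of each was 65981 for sham and 80142 for portal hypertension. Of 7 macrophage markers, Csf1r and Itgam were below the floor, 4 of the other 5 were above 0, and the sum was 44000 and 54535. All 7 fibroblast markers had a value, 6 of them above 0, with sums of 330535 and 353128. Of 9 lymphocyte markers, Cd8a, Cd2 and Cd5 were below the floor and 2 of the other 6 were above 0, with sums of 5207 and 4752. Of 7 mast cell markers, Ms4a2 and Kit were below the floor and 4 of the other 5 were above 0, with sums of 11094 and 18297. Of 6 endothelial markers, Vwf and Kdr were below the floor and none of the other 4 was above 0, with sums of 6652 and 5296. In pooled tissue RNA, more cells of a type and more RNA per cell cannot be told apart. The 9 spike-in probe sets had a median ratio of 0.29, with 8 above 0, beside 0.15 for the members. Most spike-ins gave much lower signals than most members, so these medians are not at like signal. The brightest spike-ins, BioDn-3, CreX-3 and CreX-5, had ratios of 0.12, 0.14 and 0.03. The file headers note 17 and 12.5 µg of labelled cRNA for the sham and the portal hypertensive array, each with a question mark. The part of these differences in the ratios of the ribosomal protein genes was not tested.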

How the data were processed

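The authors deposited linear intensity values, 1 for each probe set on each array. Of how they were made, the software, scaling and background correction are not stated in any source used here, and the table holds no detection calls. Per the file headers both arrays were RG_U34A. Values were used as deposited. Control probe sets were set apart, values under the floor of 330.9 (the 40th percentile of the others) were set to it, and log2 of portal hypertensive over sham was taken. Gene names are those of the platform annotation. RefSeq held 61 of the 62 members' gene identifiers, with 0 changed symbols. A gene's value was the median over those of its probe sets that exceeded the floor in 1 or both pools.

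With 1 array per group there was no test; counts used thresholds of 1.2-fold and 1.5-fold. Alternatives were quantile normalization, a loess (statsmodels 0.14.6, span 0.4), median centring, floors at the 20th and 60th percentile, the brightest probe set, each probe set on its own, probe sets whose name ends in a digit and _at, and copies left out. Adding probe sets with several symbols was chosen after seeing the data. Scripts ran in Python 3.11.15 and were tested on simulated data.

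Signals in both pools were printed for the 5 highest and 5 lowest genes of each subunit, genes with 3 or more probe sets, stalk genes, copies, Rps6, Rpl5, Rpl11, Rps19, Rpl10, Rps27a and Rpl3 where present, and up to 3 genes of each translation list. Other members are named by role, and Rpl41 with its values for its size. The members and lists were chosen with earlier results of these data known, and the role groups after their values were seen.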

Additional observations from a re-analysis of the deposited data

How the results depend on the processing

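No paired analysis was possible because each group has 1 array, and no replicate could be left out. Below, a median is said to move when it shifts by 0.1 or more and a count when it changes by more than 1.5 times; a single gene is listed when its sign turns. After quantile normalization the median was 0.042 for all ribosomal protein genes and 0.0067 for the small subunit, the difference of medians, large minus small, turned to 0.042, and 1 gene was at least 1.2-fold higher. That count was 0 after the loess, 6 after median centring and 7 with each probe set on its own. Adding the probe sets with several symbols turned the difference to 0.0097 and raised the genes above 0 to 56, with 68 genes in place of 42. Among these 68, Rpl12 was counted once for each of its probe sets. With plain probe sets only, 26 genes were left, of which 20 were above 0, 1 at least 1.2-fold lower and 0 at least 1.5-fold apart. Without copies, 0 genes were at least 1.2-fold lower and 0 at least 1.5-fold apart. The median of S6 kinases and growth signalling was 0.13 under a floor at percentile 20, -0.063 under one at percentile 60 and -0.043 with plain probe sets. That of mitochondrial ribosomal proteins was 0.21 both with the brightest probe set and with each on its own. Among single genes the sign turned after quantile normalization for Rpl11 (-0.044), Rpl22 (-0.14), Rpl27 (-0.022), Rpl27a (-0.099), Rplp0 (-0.079), Rps15 (-0.013) and Rps29 (-0.00053). After the loess it turned for Rpl11 (-0.017), Rpl21 (-0.0054), Rpl22 (-0.088), Rpl27 (-0.0066), Rpl27a (-0.045), Rpl35a (-0.042), Rplp0 (-0.038) and Rps4x-ps9 (-0.043). Rpl21 turned to -0.24 with the brightest probe set, and Rpl3l to -0.27 with the brightest probe set, with plain probe sets and under the floor at percentile 60. Without a turn of sign, the floor at percentile 20 moved Mlst8 to -0.41, Nolc1 to 0.81 and Rpl3l to 0.49, and Eef2k was -0.75 with the brightest probe set and with plain probe sets. Mlst8, Tsc2, Nvl and Pik3c3 have no value under the floor at percentile 60. The cause was not tested. The other 106 of 125 values for groups and counts stayed within these limits.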
